A study of Mus musculus with 43 samples.

Results

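The cell cycle and proliferation genes described here are 50 named mouse genes that a dividing cell uses to copy its DNA and to separate its chromosomes. They were chosen by name as a list of replication, cyclin, kinase, kinetochore, spindle and mitotic exit genes. The rule used no measured value, but the members were chosen with earlier results of these data known. All 50 were in the deposited table of 23256 genes. All 50 were also among the 19170 genes tested, which had a normalised read count of at least 10 in at least 4 of the 43 libraries. By role, 15 of the 50 act mainly in DNA synthesis, 26 act in mitosis, and the others are cyclins, Cdk1 or transcription factors.

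The libraries were made from poly-A RNA of back skin of female mice aged 10 to 13 weeks. Each of the 3 strains, labelled iNZM, NZM and WT, had a chronic UVB group (100 mJ/cm2 on each of 5 days), an acute UVB group (1 exposure to 300 mJ/cm2) and a group with no UVB. Exposed skin was taken 24 hours after the last exposure, so the regimens differ in total dose as well as in the number of exposures. There were 5 libraries in each group, except 4 each for iNZM and WT skin with no UVB. NZM is the lupus-prone strain NZM2328, per the series title. The name iNZM is used in the field for NZM2328 mice that lack the type I interferon receptor, but the labels define neither iNZM nor the strain of the WT mice. The labels do not say whether the libraries of a group came from separate animals, so p-values measure the spread between libraries.

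In the skin, cells divide mainly in the basal layer of the epidermis and in the bulb of the growing hair follicle, and they divide more after UVB injury once damaged cells have paused or died. Entry into S phase is set by cyclin E and the E2F factors, which raise the enzymes of DNA synthesis. Genes of mitosis come up later, in G2, through the B-MYB and FOXM1 factors. In resting and G1 cells they are held down by the DREAM complex, which binds short promoter elements called CHR. The kinase inhibitor p21, encoded by Cdkn1a, holds cells back after DNA damage.

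The promoters of a few members are printed here because S phase and mitosis genes differed in the letters that E2F factors and the DREAM complex are known for. They are the 150 bases before the RefSeq start of each gene on build GRCm38.p6, 5′ to 3′ on the gene's strand, and capitals mark the letters searched on both strands. Those were TTTGAA or TTCGAA for CHR, CCAAT for the CCAAT box that often lies near it, and TTCCCGC or TTGGCGC for E2F. TTGGCGC read on the other strand ends in CCAA, so an E2F match can overlap a CCAAT match.
Rrm2: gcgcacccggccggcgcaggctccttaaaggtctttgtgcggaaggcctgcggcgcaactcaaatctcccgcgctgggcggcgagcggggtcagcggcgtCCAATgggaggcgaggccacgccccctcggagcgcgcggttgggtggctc
Ccne1: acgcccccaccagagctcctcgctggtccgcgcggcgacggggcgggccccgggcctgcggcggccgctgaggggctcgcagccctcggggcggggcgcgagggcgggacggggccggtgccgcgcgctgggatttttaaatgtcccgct
Mcm5: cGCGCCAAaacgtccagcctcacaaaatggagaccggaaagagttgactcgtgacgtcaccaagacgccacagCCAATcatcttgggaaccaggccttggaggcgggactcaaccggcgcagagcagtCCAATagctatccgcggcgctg
Mcm6: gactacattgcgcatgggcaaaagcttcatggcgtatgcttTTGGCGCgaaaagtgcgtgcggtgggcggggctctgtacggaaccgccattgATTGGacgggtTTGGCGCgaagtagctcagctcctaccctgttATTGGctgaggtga
Cdc20: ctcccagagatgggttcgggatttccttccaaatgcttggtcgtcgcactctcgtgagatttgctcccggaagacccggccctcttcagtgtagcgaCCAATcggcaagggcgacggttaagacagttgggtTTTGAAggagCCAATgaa
Cdk1: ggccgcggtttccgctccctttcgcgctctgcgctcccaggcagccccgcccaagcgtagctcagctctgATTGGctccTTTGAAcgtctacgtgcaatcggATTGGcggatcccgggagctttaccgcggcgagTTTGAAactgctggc
Top2a: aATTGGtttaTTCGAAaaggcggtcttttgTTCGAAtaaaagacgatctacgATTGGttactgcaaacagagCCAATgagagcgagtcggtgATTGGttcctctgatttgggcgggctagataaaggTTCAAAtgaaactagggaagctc
Rrm2 (chr12:24708104-24708253, plus strand) and Ccne1 (chr7:38107491-38107640, minus strand) are shown because they were called higher in every UVB comparison. Mcm5 (chr8:75109359-75109508, plus strand) and Mcm6 (chr1:128359706-128359855, minus strand) are helicase subunits of S phase. Cdc20 (chr4:118437344-118437493, minus strand), Cdk1 (chr10:69352913-69353062, minus strand) and Top2a (chr11:99024190-99024339, minus strand) are needed for mitosis.

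The Mcm6 promoter held 2 E2F matches and Mcm5 held 1 in the stretch shown, while neither held CHR letters. Rrm2 held 1 CCAAT match and Ccne1 no match. Cdc20 held 1 CHR match beside a CCAAT box, Cdk1 held 2, and the Top2a stretch held several of each. Over the wider window of 250 bases before to 50 after the start, 42 of the 50 members had a RefSeq promoter. CHR letters stood in 19 of 23 promoters with a mitosis role (82.6%) and in 3 of 13 with an S phase role (23.1%), against 19.4% of all 27025 promoters. E2F letters stood in 1 of 23 promoters with a mitosis role (4.35%) and in 7 of 13 with an S phase role (53.8%), against 6.93% of all promoters. CCAAT stood in 31 of the 42 members (73.8%), against 37.9% of all. A match of letters is a description of the sequence and not a binding site.

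Libraries held 18493566 to 37756660 reads, with a median of 24442363. A score here is the mean over a list's genes of log2(normalised reads + 1), centred per gene over all 43 libraries. Hair follicle markers, a list of 24 keratin, keratin-associated and other genes of the growing follicle, set 9 UVB libraries apart. These were iNZM acute UVB libraries 6 and 49, NZM acute UVB library 5, iNZM chronic UVB libraries 22, 24 and 25, and NZM chronic UVB libraries 17, 55 and 56. Their hair follicle scores were 5.88 to 8.91, against −3.56 to 2.83 in the other 34 libraries. Their member scores were 0.69 to 1.42, against −1.97 to 1.09 in the other 34, and none of the WT libraries was among the 9. Member counts for UVB against no UVB are therefore given with and without these 9 libraries below, as are several single genes. Some other comparisons and genes are given with all libraries only. The sample numbers also split: 13 UVB libraries and no unexposed library had a number of 46 or above.

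**Figure D1:**
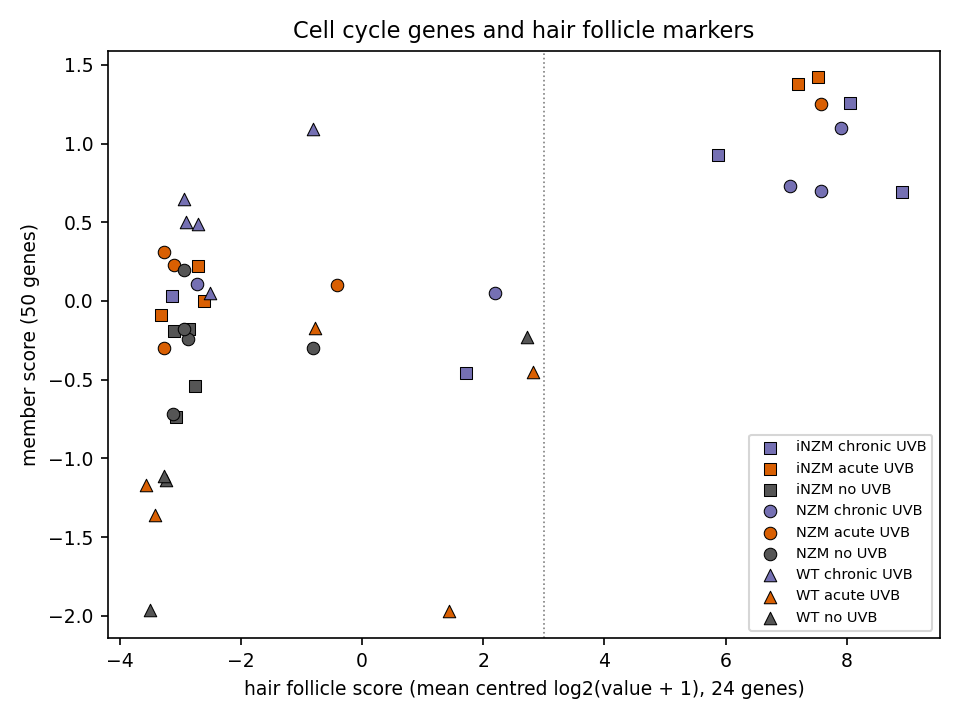
Member score over the 50 genes (vertical axis) against hair follicle score over 24 marker genes (horizontal axis), both in log2 units, for the 43 libraries. Shapes give the strain and colours the UVB regimen. The 9 libraries right of the dotted line at 3 have member scores of 0.69 to 1.42, and the WT chronic UVB libraries reach 0.05 to 1.09 on the left of it.

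After chronic UVB, WT skin held more RNA of nearly the whole list. By limma on log2(normalised reads + 1), 42 of 50 members rose against WT skin with no UVB and none fell, where 18.4% of all genes tested rose. The median log2 difference of the members was 1.80, against 0.03 over all genes tested. Without the 9 libraries, none of them WT, the count was 45 beside a background of 22.5%, from a fit in which WT groups change only through the spread estimate that all groups share. In 31 members every WT chronic UVB library lay above every WT library with no UVB, as it did in 13.9% of all genes tested, and no member lay wholly below. In bulk skin, more dividing cells and more RNA per cell cannot be told apart.

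The largest rises in WT skin were in mitosis. Birc5, which encodes survivin of the chromosomal passenger complex, had 849, 1043, 1345, 1445 and 1549.8 normalised reads in WT chronic UVB libraries, against 76.6, 163, 193 and 344 in WT libraries with no UVB. The groups did not overlap, and the log2 difference was 2.83 ± 0.40 (SE, adjusted p by limma 1.81e-06). All 7 kinetochore, checkpoint and passenger genes rose, with Cenpe, a kinetochore motor, at 2.68 ± 0.47. Cenpa, the centromeric histone, had 597, 852, 879, 1103 and 1477 normalised reads in WT chronic UVB libraries, against 84.7, 191, 232 and 304 in WT libraries with no UVB, and a log2 difference of 2.35 ± 0.38 (SE, adjusted p by limma 1.15e-05). Cdc20, which activates the anaphase-promoting complex, had 951, 1437, 1483, 1794 and 1924 normalised reads in WT chronic UVB libraries, against 119.5, 252, 257 and 375 in WT libraries with no UVB. The groups were again apart, and the log2 difference was 2.66 ± 0.38 (SE, adjusted p by limma 1.81e-06). Ube2c, the ubiquitin-conjugating enzyme of that complex, rose by 2.46, and Cdca3, which is needed for entry into mitosis, by 2.34.

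Of the 6 mitotic kinases all rose, with Plk1 at 2.57 ± 0.53, Bub1 at 2.52 ± 0.60 and Ttk, the spindle checkpoint kinase, at 1.50 ± 0.23 (SE, adjusted p by limma 6.09e-06). Of the 8 spindle and cytokinesis genes 7 rose, led by Kif2c, a microtubule depolymerase, at 2.44 ± 0.52. The 8th, Prc1, which bundles the central spindle, had a log2 difference of 1.31 ± 0.53 (SE, adjusted p by limma 0.0514). Ki-67, encoded by Mki67 and used as a stain for dividing cells, had 2866, 3286, 4075, 4757 and 6209 normalised reads in WT chronic UVB libraries, against 378, 833, 922 and 1981 in WT libraries with no UVB. Every exposed library was above every unexposed one. The log2 difference was 2.23 ± 0.51 (SE, adjusted p by limma 0.000994). Top2a, which untangles sister chromatids, had 2367, 3472, 3494, 3916 and 4952 normalised reads in WT chronic UVB libraries, against 402, 907, 922 and 2066 in WT libraries with no UVB. Its groups also did not overlap, and the log2 difference was 1.95 ± 0.45 (SE, adjusted p by limma 0.00104).

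Among cyclins, Ccnb1, which carries Cdk1 into mitosis, had 544, 813, 917, 928 and 1359 normalised reads in WT chronic UVB libraries, against 111, 182, 203 and 398 in WT libraries with no UVB. Its log2 difference was 2.11 ± 0.47 (SE, adjusted p by limma 0.000655), and that of its relative Ccnb2 was 2.53 ± 0.51. Ccna2, the cyclin of S and G2, rose by 1.80. Cdk1 had 694, 851, 943, 1152 and 1478 normalised reads in WT chronic UVB libraries, against 117, 181, 213 and 391 in WT libraries with no UVB, a log2 difference of 2.26 ± 0.41 (SE, adjusted p by limma 6.73e-05). Its groups did not overlap. The G1 to S cyclins differed from each other. Ccne1 had a log2 difference of 2.11 ± 0.32 (SE, adjusted p by limma 4.32e-06), whereas Ccne2 had one of 0.61 ± 0.28 (SE, adjusted p by limma 0.0879). Of the transcription factors, Mybl2 (B-MYB) had 138, 202, 241, 249 and 330.3 normalised reads in WT chronic UVB libraries, against 33.7, 38.6, 63.6 and 144 in WT libraries with no UVB. WT library 44 with no UVB lay above the lowest exposed library and below the other 4. Mybl2 rose by 1.91 and Foxm1 by 1.59, while E2f1 had a log2 difference of 0.06 ± 0.23 (SE, adjusted p by limma 0.855).

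S phase genes moved less. Of 15 with S phase roles 10 rose in WT skin after chronic UVB, with a median log2 difference of 0.76, while of 26 with mitosis roles 25 rose, with a median of 2.11. The 4 genes of DNA precursor synthesis all rose, led by Rrm2, the regulated subunit of ribonucleotide reductase. Its partner subunit Rrm1 rose by 0.72 only, Tk1 (thymidine kinase) by 1.85 and Tyms (thymidylate synthase) by 1.31. Of the 9 origin licensing and firing genes 5 rose, among them Cdc6, the helicase loader, at 1.23 ± 0.40. Mcm5 had 1183, 1544, 1579, 1585 and 2438 normalised reads in WT chronic UVB libraries, against 586, 595, 817 and 1622 in WT libraries with no UVB. These overlapped, since WT library 44 with no UVB stood at the level of the exposed libraries, and the log2 difference was 0.97 ± 0.35 (SE, adjusted p by limma 0.0269). That call was lost without WT chronic UVB library 58 (adjusted p by limma 0.0771) or unexposed library 41, 43 or 45 (0.0963, 0.0509 and 0.106). Mcm2, Mcm3, Mcm6 and Gins2 had log2 differences of 0.35 to 0.54 and did not pass the test. The sliding clamp Pcna had 2353, 2409, 2410.5, 2497 and 3453 normalised reads in WT chronic UVB libraries, against 1590.1, 1597, 1871 and 2411 in WT libraries with no UVB. The ranges overlapped at their edge, and the log2 difference was 0.50 ± 0.22 (SE, adjusted p by limma 0.073). Without unexposed library 44 it was called (adjusted p by limma 0.0381).

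**Figure D2:**
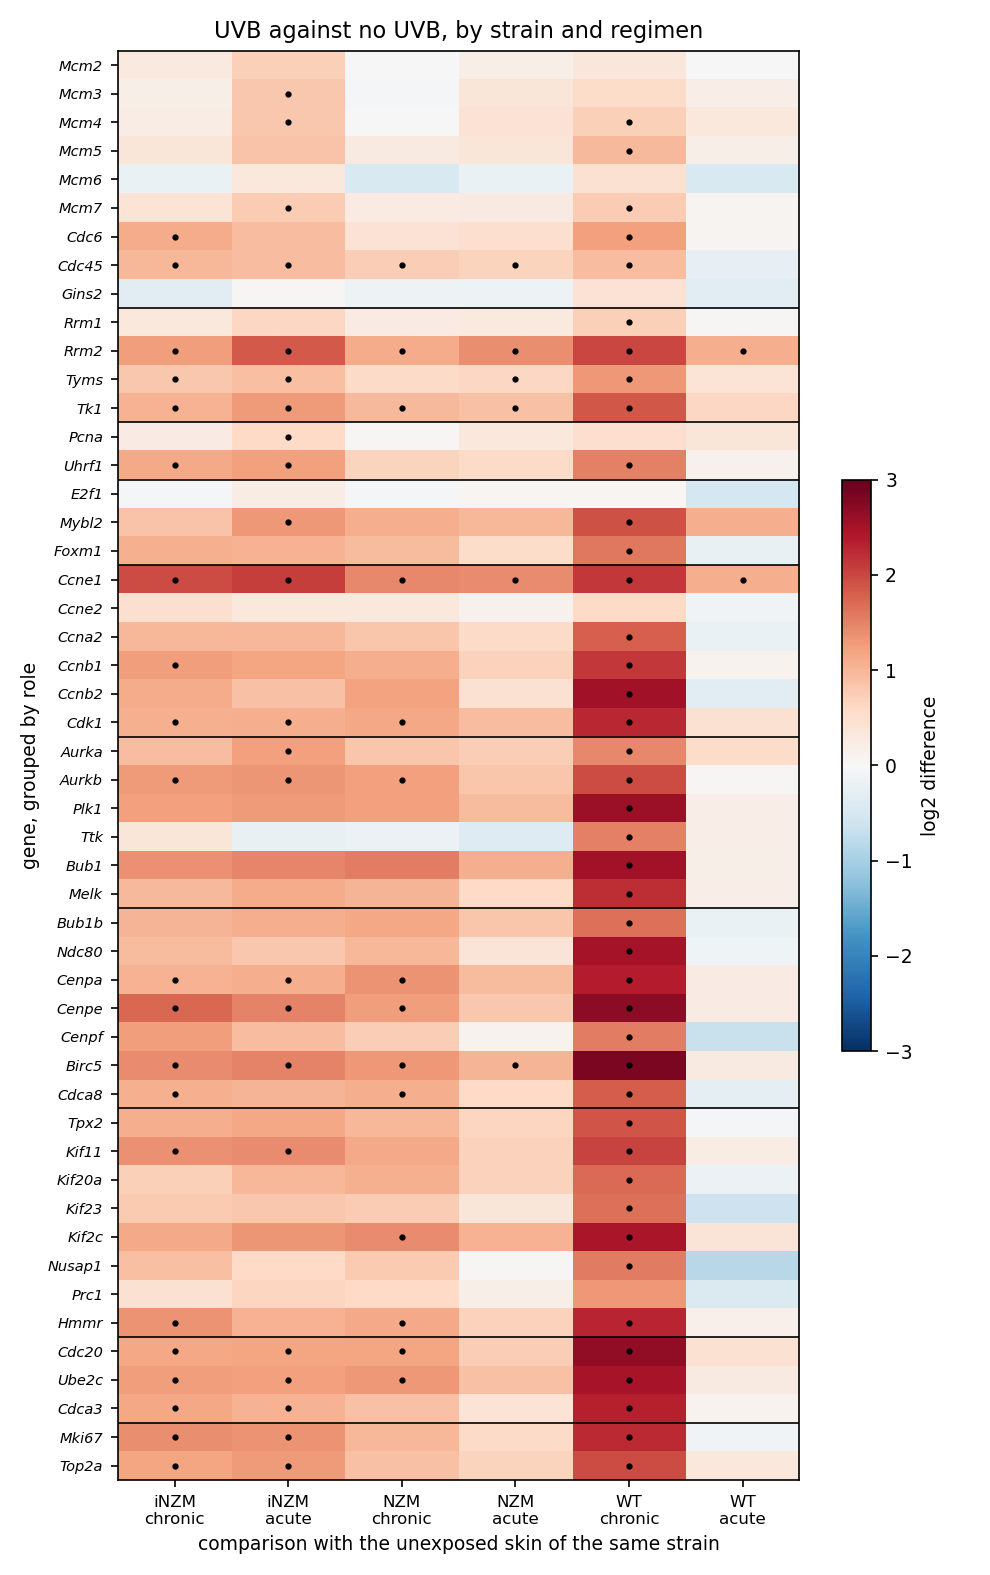
Log2 differences of the 50 members between UVB and no UVB within a strain, 1 row per gene and 1 column per comparison, with red for higher under UVB. Dots mark a limma adjusted p below 0.05, and lines separate the roles, from origin licensing at the top to mitotic chromosome proteins at the bottom. WT chronic UVB has 42 dots and WT acute UVB has 2.

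After acute UVB, 2 of 50 members, Rrm2 and Ccne1, rose in WT skin against WT skin with no UVB, where 10.4% of all genes tested rose, and the median log2 difference of the members was 0.12 against 0 over all genes tested. For 4 members the unadjusted p was below 0.05. Leaving out WT acute UVB library 15 left 1 call. Without the 9 libraries 3 members rose (Rrm2, Ccne1 and Mybl2), where 13.9% of all genes tested rose. Nusap1, a spindle microtubule protein, then fell, with a log2 difference of -0.82. Among the WT acute UVB libraries the member score was −1.97 to −1.17 in the 3 with sample numbers 50, 51 and 52, and −0.45 and −0.17 in the 2 with numbers 15 and 13. With sample numbers below 46 alone, which leaves those 2, 8 members rose, where 8.24% of all genes did, and the member median was 0.79 against −0.04 over all genes tested.

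Chronic and acute UVB could be set side by side in each strain. In WT skin, 44 of 50 members were higher after chronic than after acute UVB, where 19.6% of all genes tested were higher. The 6 that were not called were Mcm2, Mcm3, Mcm4, Mcm5, Pcna and Mybl2. The median log2 difference of the members was 1.82, against 0.03 over all genes tested, and 26 of 26 with mitosis roles were called. Ccnb2 showed the largest difference, 2.84 ± 0.48 (SE, adjusted p by limma 1.57e-05), and Birc5 one of 2.57 ± 0.38 (SE, adjusted p by limma 1.95e-06). The sample numbers touch this result. Among libraries with numbers of 46 or above, 46 members were higher after chronic UVB (2 chronic and 3 acute libraries), where 10.3% of all genes were. Among those below 46, 2 members were (3 chronic and 2 acute libraries), where 8.87% of all genes were. Medians of the members were 2.76 in the first set and 0.76 in the second. Which of sample number, library or regimen goes with that gap was not tested.

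In NZM skin no member was called between chronic and acute UVB, where 7.55% of all genes tested were called in either direction, no member had an unadjusted p below 0.05 by limma, and edgeR called none. In iNZM skin no member was called by limma or edgeR either, where 8.26% of all genes were, and 4 members had an unadjusted p below 0.05. Leaving out 1 of the iNZM acute UVB libraries 6 and 49 or of the iNZM chronic UVB libraries 24 and 25 gave 1 call. Without the 9 libraries, iNZM skin had 1 member higher and 7 lower after chronic UVB, from 2 chronic and 3 acute libraries, where 22.9% of all genes were called in either direction. With a hair follicle term in the model, 9 members were lower after chronic UVB in iNZM skin, where 7.93% of all genes were, and 4 in NZM skin, where 6.03% were. A p-value that misses the threshold does not show that the regimens act alike. The median log2 difference of the members between chronic and acute UVB was −0.06 in iNZM and 0.27 in NZM skin.

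**Figure D3:**
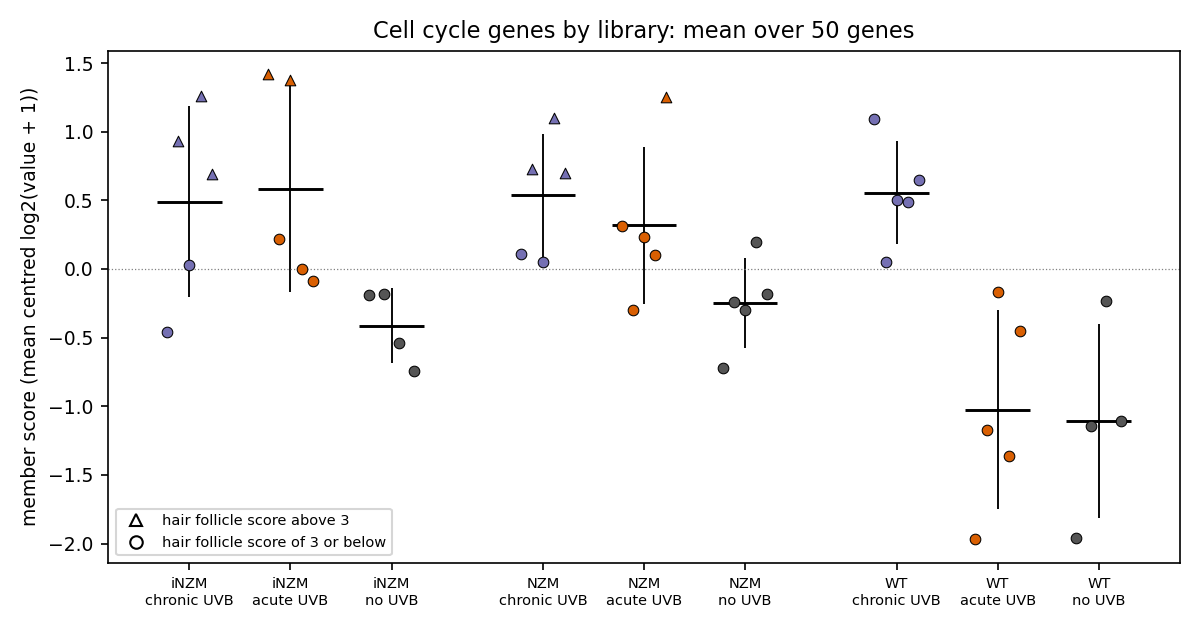
Member score (mean over 50 genes of log2(normalised reads + 1), centred per gene) in each library, by strain and regimen. Points are libraries, triangles those with a hair follicle score above 3, horizontal bars means and vertical bars 1 SD. WT skin has 0.05 to 1.09 after chronic UVB, −1.97 to −0.17 after acute UVB and −1.96 to −0.23 with no UVB.

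In iNZM skin under both regimens, and in NZM skin after chronic UVB, a larger share of members than of all genes rose. The highest member scores of these strains lay in the 9 libraries with a hair follicle score above 3. In iNZM skin 21 of 50 members rose after chronic UVB, where 13.1% of all genes tested rose. After acute UVB 23 rose in iNZM skin, where 12.8% of all genes did. In NZM skin 14 members rose after chronic UVB, where 9.20% of all genes did, and 6 rose after acute UVB, which is 12% of the members and near the 10.6% of all genes that did. No member fell in any of the 4 comparisons. The median log2 differences of the members were 1.04 (chronic) and 1.04 (acute) in iNZM skin, and 0.96 (chronic) and 0.60 (acute) in NZM skin. Over all genes tested they were 0.02, 0, 0.04 and 0.02 in the same order. The chronic UVB counts of 21 in iNZM and 14 in NZM skin carry no order of the strains. With sample numbers below 46 alone 36 members rose in iNZM skin (4 chronic UVB libraries), where 13.9% of all genes did, and 1 in NZM skin (2 chronic UVB libraries), where 1.85% did. Fitting the compared groups alone gave 11 in iNZM skin, where 6.56% of all genes rose, and 32 in NZM skin, where 10.4% did.

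These counts were lower without the 9 libraries. In iNZM skin after chronic UVB, 2 members rose (Ccne1 and Cenpe), where 9.94% of all genes tested rose, and Gins2, a subunit of the replicative helicase, had a log2 difference of -0.93. In iNZM skin after acute UVB, 5 members rose (Mcm4, Rrm2, Tyms, Tk1 and Ccne1), where 10.6% of all genes rose. In NZM skin after chronic UVB none rose, where 2.58% of all genes rose. In NZM skin after acute UVB, Rrm2 and Ccne1 rose, a smaller share than the 14.2% of all genes that rose. These fits left 2 chronic UVB libraries in each of the 2 strains, so they have less power as well as less hair follicle RNA. With a term for the hair follicle score in place of leaving libraries out, 2 members rose in iNZM skin after chronic UVB, where 6.34% of all genes did, and 7 after acute UVB, where 10.9% did. In NZM skin that fit called 2 members after chronic UVB, 1 of them lower, where 14.7% of all genes were called in either direction, and 7 rose after acute UVB, where 13.7% did. Hair follicle markers themselves rose in 20 of 24 cases in iNZM skin and 16 of 24 in NZM skin after chronic UVB, 1 of 24 in iNZM skin and 0 of 24 in NZM skin after acute UVB, and 0 of 24 in WT skin under either regimen. Their part in the member counts was not tested.

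Single libraries also moved these counts by more than 1.5 times. The share of all genes called in these fits is not given, so the counts are read only against each other. For iNZM chronic UVB the count was 8, 7 or 10 without library 22, 24 or 25, and 8 or 6 without unexposed library 39 or 40. For iNZM acute UVB it was 7 or 8 without library 6 or 49, and 8 without unexposed library 39 or 40. For NZM chronic UVB it was 3, 4 or 5 without library 17, 55 or 56, and 4, 8, 6 or 7 without unexposed library 31, 32, 33 or 35. For NZM acute UVB it was 2, 3 or 2 without library 1, 47 or 5, and 2, 2, 2 or 3 without unexposed library 31, 32, 33 or 35.

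Mki67 shows the split within a group. In iNZM acute UVB skin it had 1323, 1834, 2788, 9478 and 11220.4 normalised reads, where the 2 highest were libraries 6 and 49, against 808, 1199, 2092 and 2217 in iNZM skin with no UVB. Of the lower 3 exposed libraries 2 lay inside the unexposed range, and the log2 difference over all libraries was 1.36 ± 0.51 (SE, adjusted p by limma 0.0485). The call was lost without library 6 or 49 (adjusted p by limma 0.174 and 0.188) or unexposed library 39 or 40 (0.114 and 0.174). Leaving out the 9 libraries gave 0.38 ± 0.44 (SE, adjusted p by limma 0.606). In NZM acute UVB skin Mki67 had 1843, 2298, 2779, 2839 and 6625 normalised reads, where the highest was library 5, against 1266, 1745, 1910.4, 2153 and 3253 in NZM skin with no UVB. The other 4 lay inside the unexposed range, and the log2 difference was 0.58 ± 0.48 (SE, adjusted p by limma 0.432).

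Cdc20 divided NZM chronic UVB skin in the same way. It had 914, 978, 1422, 1602 and 1757 normalised reads there, against 382, 527, 583, 683 and 708 in NZM skin with no UVB. All 5 exposed libraries were above the unexposed ones, with the 3 hair follicle libraries on top. The log2 difference was 1.19 ± 0.36 (SE, adjusted p by limma 0.0196), and 0.75 ± 0.38 (SE, adjusted p by limma 0.276) without the 9 libraries. Leaving out library 17 or 55 alone, or unexposed library 31, also lost the call (adjusted p by limma 0.0523, 0.0591 and 0.0591). In iNZM chronic UVB skin Cdc20 had 540.5, 948, 1278, 1541 and 1859 normalised reads, against 357, 435, 644 and 646 in iNZM skin with no UVB. Here library 57 lay inside the unexposed range. Its call after chronic UVB was lost without library 22 or 24 or unexposed library 39 or 40 (adjusted p by limma 0.0535 to 0.0795). Without the 9 libraries the difference was 0.51 ± 0.40 (SE, adjusted p by limma 0.3845). In WT skin the same gene differed by 2.66 with no hair follicle library in the group.

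Rrm2 and Ccne1 were the exception, since both were called higher in all 6 UVB comparisons. Tk1, Cdc45 and Birc5 were called in 5, 18 members in 1 and 6 members in none. The 6 were Mcm2, Mcm6, Gins2, E2f1, Ccne2 and Prc1. The comparisons of chronic and acute UVB within a strain share their unexposed libraries, so the counts are not independent. Rrm2 kept all 6 calls whichever single library was left out. Ccne1 kept 5 and lost the call after acute UVB in WT skin without WT acute UVB library 15 (adjusted p by limma 0.0547) or unexposed library 41 (0.0541).

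Rrm2 lies at chr12:24708241-24714146 on the plus strand (GRCm38, GENCODE vM21), where no other gene's exons overlap it. In iNZM skin it had 805, 1278, 1878, 2359 and 2461 normalised reads after chronic UVB and 1798, 2107, 2224, 2904 and 3316 after acute UVB, against 626, 647, 688 and 757 with no UVB. All 10 exposed iNZM libraries exceeded the 4 unexposed ones. The log2 differences were 1.26 ± 0.27 (SE, adjusted p by limma 0.00133) for chronic and 1.83 ± 0.27 (SE, adjusted p by limma 7.5e-06) for acute UVB. In NZM skin it had 1357, 1401, 1897, 1956 and 2522 after chronic and 1619, 1654, 2245, 2522 and 3014 after acute UVB, against 628, 734, 756, 928 and 1139 with no UVB. Again no exposed library was as low as an unexposed one, and the log2 differences were 1.12 ± 0.26 (SE, adjusted p by limma 0.0029) for chronic and 1.39 ± 0.26 (SE, adjusted p by limma 0.000135) for acute UVB. In WT skin it had 1849.5, 2371, 2468, 2563 and 2922 after chronic and 966, 989, 1050.2, 1694 and 1866 after acute UVB, against 443, 463, 586 and 1043 with no UVB. Chronic UVB libraries were all above the unexposed ones, while 2 acute UVB libraries lay below unexposed library 44. The log2 differences were 2.02 ± 0.27 (SE, adjusted p by limma 8.05e-07) for chronic and 1.08 ± 0.27 (SE, adjusted p by limma 0.00333) for acute UVB.

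Leaving out the 9 libraries, the Rrm2 difference after acute UVB was 1.58 ± 0.26 (SE, adjusted p by limma 3.91e-05) in iNZM and 1.27 ± 0.22 (SE, adjusted p by limma 9.2e-05) in NZM skin. After chronic UVB it was 0.58 ± 0.29 (SE, adjusted p by limma 0.155) in iNZM and 0.75 ± 0.28 (SE, adjusted p by limma 0.116) in NZM skin, where the call was lost.

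Ccne1, cyclin E1, lies at chr7:38097984-38107534 on the minus strand. In iNZM skin it had 219, 235, 318, 376 and 433 normalised reads after chronic UVB and 229, 252, 299, 482 and 497 after acute UVB, against 50.1, 72.6, 80.3 and 125 with no UVB. The groups were fully apart. The log2 differences were 1.96 ± 0.32 (SE, adjusted p by limma 6.16e-05) for chronic and 2.08 ± 0.32 (SE, adjusted p by limma 9.84e-06) for acute UVB. In NZM skin it had 203, 228, 254, 289 and 328 after chronic and 160.3, 217, 237, 299 and 411 after acute UVB, against 59.5, 77.3, 88.2, 108 and 160.1 with no UVB. The lowest acute UVB library, 46, stood at the level of the highest unexposed library, 34, and the chronic group was fully above. The log2 differences were 1.45 ± 0.30 (SE, adjusted p by limma 0.00103) for chronic and 1.43 ± 0.30 (SE, adjusted p by limma 0.000608) for acute UVB. In WT skin it had 238, 264, 296, 316 and 389.6 after chronic and 77.1, 134, 142, 164 and 266 after acute UVB, against 48.7, 55.4, 68.3 and 115 with no UVB. One acute UVB library fell inside the unexposed range. The log2 differences were 2.11 ± 0.32 (SE, adjusted p by limma 4.32e-06) for chronic and 1.08 ± 0.32 (SE, adjusted p by limma 0.0115) for acute UVB. Fits without the 9 libraries kept the Ccne1 call in iNZM skin, at 1.53 after chronic and 1.72 after acute UVB, and in NZM skin after acute UVB, at 1.25. In NZM skin after chronic UVB it was 1.20 ± 0.37 (SE, adjusted p by limma 0.0576), just outside the threshold.

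Tk1, Cdc45 and Birc5 were called in every comparison other than WT acute UVB. Tk1, at chr11:117815526-117826092 on the minus strand, overlaps exons of Afmid on the other strand, and Cdc45, at chr16:18780447-18811987, overlaps Ufd1. Whether reads were counted by strand is not given in the sources used here. Birc5 had 548, 839, 839, 1156 and 1423 normalised reads in iNZM chronic UVB skin and 499, 626, 988, 1552 and 1618 in iNZM acute UVB skin, against 239.8, 304, 393 and 469 in iNZM skin with no UVB. Exposed libraries were above unexposed ones in both regimens. The log2 differences were 1.42 ± 0.40 (SE, adjusted p by limma 0.01) for chronic and 1.48 ± 0.40 (SE, adjusted p by limma 0.00661) for acute UVB. With the 9 libraries left out they were 0.99 ± 0.48 (SE, adjusted p by limma 0.145) and 0.99 ± 0.43 (SE, adjusted p by limma 0.102), where both calls were lost. In NZM skin the Birc5 call after acute UVB, at 1.03 ± 0.38, was lost without any 1 of acute UVB libraries 1, 3, 5 and 47 or of the 5 unexposed libraries (adjusted p by limma 0.0515 to 0.154), and the call after chronic UVB, at 1.29 ± 0.38, without library 17 (0.0542). With the 9 libraries left out, neither was called in NZM skin, at 0.80 after acute and 0.87 after chronic UVB (adjusted p by limma 0.1151 and 0.2996).

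Tk1 in iNZM skin had 447, 908, 1003, 1191 and 1549 normalised reads after chronic UVB and 757, 760.5, 1057, 1656 and 1672 after acute UVB, against 337, 424, 525 and 595 with no UVB. Chronic UVB library 57 lay inside the unexposed range and the other 9 exposed libraries above it. In NZM skin Tk1 had 731, 735, 1225, 1287 and 1324 after chronic and 704, 839, 863, 1054 and 1541 after acute UVB, against 404, 429, 468, 599 and 802 with no UVB. Unexposed NZM library 34 overlapped both exposed groups. In WT skin it had 842, 1086, 1133, 1349 and 1900.1 after chronic and 329.5, 385, 489, 719 and 857 after acute UVB, against 257, 292, 349 and 486 with no UVB, where the chronic group alone was fully above. Of the 3 strains WT had the largest log2 difference after chronic UVB, 1.85, beside 1.04 in iNZM and 0.97 in NZM skin, and the difference in that response between NZM and WT skin, -0.88, was not called (adjusted p by limma 0.211). Several Tk1 calls rested on single libraries. In NZM skin the acute UVB call was lost without acute UVB library 1 or 5 or unexposed library 31, 32 or 33 (adjusted p by limma 0.0662 to 0.104), and the chronic UVB call without chronic UVB library 17, 55 or 56 or unexposed library 31 or 33 (0.0556 to 0.0688). In iNZM skin the chronic UVB call was lost without library 24 (0.0624) or unexposed library 40 (0.0651). Without the 9 libraries Tk1 stayed called in iNZM skin after acute UVB, at 0.88 (adjusted p by limma 0.042). It was then not called after chronic UVB in iNZM (0.2864) or NZM skin (0.4414), nor after acute UVB in NZM skin (0.0516).

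Cdc45, which activates the helicase at origins, had 326, 361, 376, 537 and 559 normalised reads in iNZM chronic UVB skin and 267, 292, 381, 579 and 587 in iNZM acute UVB skin, against 195, 199, 219.8 and 229.9 in iNZM skin with no UVB. Both exposed groups were fully above. In NZM skin it had 322, 344, 357, 413 and 557 after chronic and 298, 305, 358, 426 and 514 after acute UVB, against 175, 229.9, 247, 255 and 279 with no UVB, again with no overlap. In WT skin it had 353, 400.2, 416, 425 and 433 after chronic UVB, above every unexposed library, and 85.3, 173, 174, 230.2 and 307 after acute UVB, against 146, 207, 229 and 294 with no UVB. The acute and unexposed WT libraries overlapped. In NZM skin the log2 difference was 0.73 ± 0.24 (SE, adjusted p by limma 0.0317) after chronic UVB and 0.66 ± 0.24 (SE, adjusted p by limma 0.0461) after acute UVB. The chronic UVB call was lost without library 17, 55 or 56 or unexposed library 31 or 32 (adjusted p by limma 0.0507 to 0.111), and the acute UVB call without library 1, 5 or 47 or unexposed library 31, 32, 33 or 35 (0.0595 to 0.13). Without the 9 libraries Cdc45 was not called in NZM or iNZM skin under either regimen. After chronic UVB it then had 0.50 in NZM and 0.73 in iNZM skin (adjusted p by limma 0.3291 and 0.0768). After acute UVB it had 0.55 and 0.56 (0.0734 and 0.1357).

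The helicase subunit Mcm5 was called in 1 of the 6 UVB comparisons, that of WT chronic UVB, and the clamp Pcna in 1, that of iNZM acute UVB. Mcm5 had 610.2, 1103, 2053, 2193 and 2745 normalised reads in iNZM chronic UVB skin and 1641, 1762, 1880.2, 2918 and 2934 in iNZM acute UVB skin, against 1085, 1158, 1176 and 1326 in iNZM skin with no UVB. Acute UVB libraries were all above the unexposed ones, and the chronic UVB libraries 22, 24 and 25, which are among the 9 with high hair follicle scores, were above them too, while libraries 57 and 23 were not. The acute UVB difference, 0.87 ± 0.35 (SE, adjusted p by limma 0.062), was called without library 48 (adjusted p by limma 0.0481). In NZM skin Mcm5 had 1100.5, 1337, 1989, 2278 and 2549 after chronic and 1419.7, 1427, 1878, 2017 and 2915 after acute UVB, against 1099, 1253, 1331, 1615 and 2222 with no UVB, with overlap in both. Pcna had 1278, 1609, 2606, 2903 and 3287 in iNZM chronic UVB skin and 2299, 2438, 2558, 3120.4 and 3791 in iNZM acute UVB skin, against 1729, 1879, 1884 and 1919 in iNZM skin with no UVB. Its log2 difference was 0.59 ± 0.22 (SE, adjusted p by limma 0.0425) after acute UVB, with no overlap, and 0.25 ± 0.22 (SE, adjusted p by limma 0.404) after chronic UVB, with overlap. The Pcna call after acute UVB was lost without library 6 (adjusted p by limma 0.135) or 49 (0.0905), or without any 1 of the unexposed libraries 37, 38, 39 and 40 (0.0642 to 0.0984). It was also lost without the 9 libraries, at 0.39 ± 0.17 (SE, adjusted p by limma 0.1003).

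**Figure D4:**
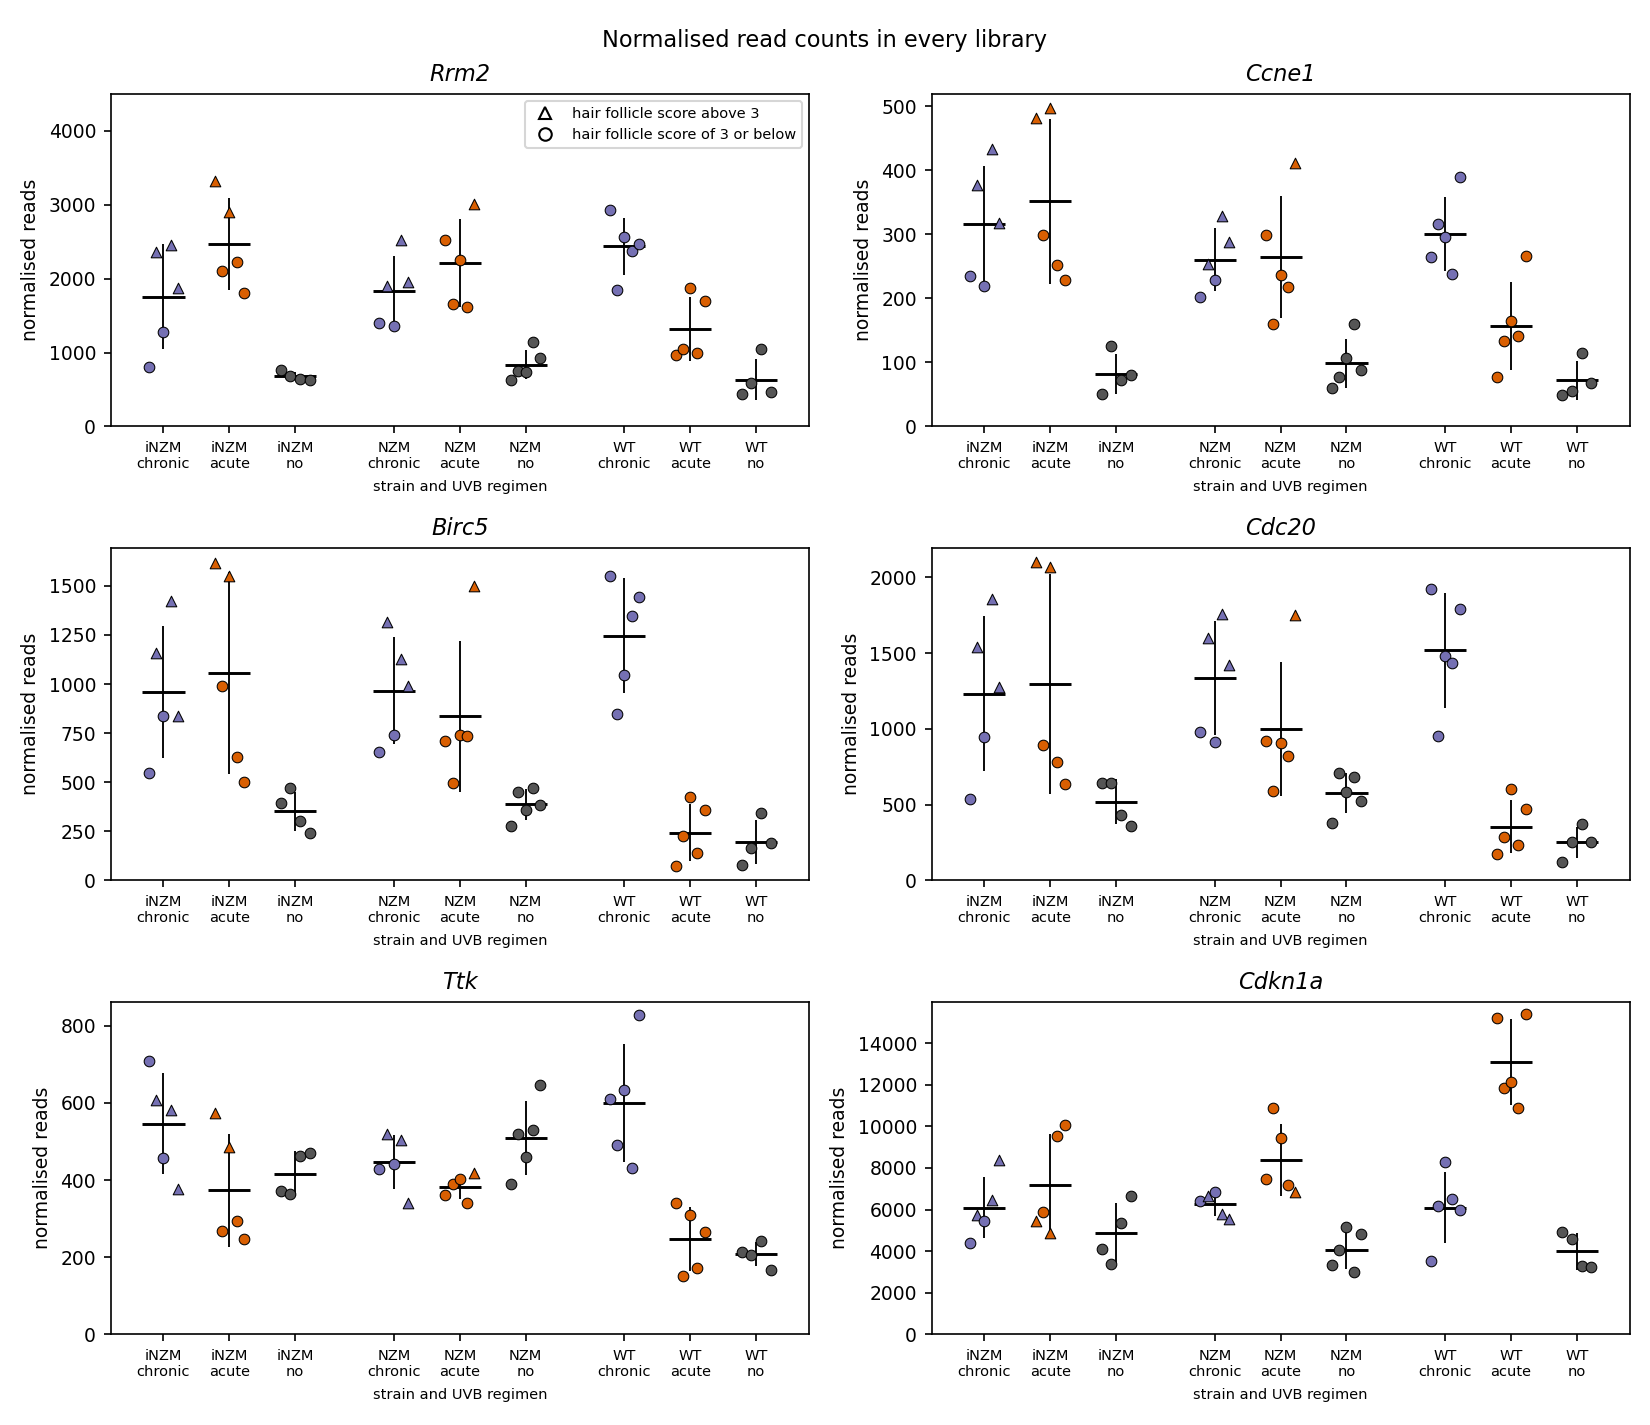
Normalised read counts (vertical axes, from 0) of 5 members and of Cdkn1a in every library, by strain and regimen. Points are libraries, triangles those with a hair follicle score above 3, horizontal bars means and vertical bars 1 SD. Rrm2 and Ccne1 are raised in UVB groups of all 3 strains, and the Birc5 and Cdc20 points of WT acute UVB skin overlap those of WT skin with no UVB.

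The balance of S phase and mitosis genes is given here per library, with no test. The S phase score minus the mitosis score was below 0 in all 15 chronic UVB libraries, from −0.67 to −0.21. That held for hair follicle scores above 3 and for those of 3 or below. The latter still reached 2.2 in NZM library 18 and 1.72 in iNZM library 57. In acute UVB libraries with a hair follicle score of 3 or below it was 0.02 to 0.43 in iNZM, −0.04 to 0.41 in NZM and 0.42 to 1.29 in WT skin. In skin with no UVB it was −0.12 to 0.37 in iNZM, −0.04 to 0.42 in NZM and 0.08 to 1.46 in WT skin. The 3 acute UVB libraries with a hair follicle score above 3 had −0.73 to −0.44, within or below the chronic range. Since a score is centred over all libraries, 0 is the mean of these libraries and not an equal amount of RNA. Libraries with a low member score often had a high difference. WT library 41 with no UVB had a member score of −1.96 and a difference of 1.46, and iNZM acute UVB library 49 had 1.38 and −0.73. By contrast, iNZM chronic UVB library 57 had −0.46 and −0.32. The part of the member score in this difference was not tested.

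The members are counted here by role, beside the share of all genes that rose. In iNZM skin after chronic UVB, 6 of 15 S phase genes and 12 of 26 mitosis genes rose, with median log2 differences of 0.37 and 1.14, where 13.1% of all genes rose. After acute UVB 9 of 15 and 11 of 26 rose, with medians of 0.82 and 1.14, where 12.8% of all genes did. In NZM skin after chronic UVB, 3 of 15 and 9 of 26 rose, with medians of 0.26 and 1.07, where 9.20% of all genes did. After acute UVB 4 of 15 and 1 of 26 rose, with medians of 0.36 and 0.69, where 10.6% of all genes did, so the mitosis count lies below the share of all genes. In WT skin after acute UVB 1 of 15 and 0 of 26 rose, both below the 10.4% of all genes that did, with medians of 0.13 and 0.16, and no mitosis gene had an unadjusted p below 0.05. The helicase subunits Mcm3 and Mcm4 were called in iNZM skin after acute UVB, at 0.81 ± 0.28 and 0.82 ± 0.24, and had log2 differences of 0.19 and 0.22 after chronic UVB. They had -0.04 and -0.02 in NZM skin after chronic UVB.

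**Figure D5:**
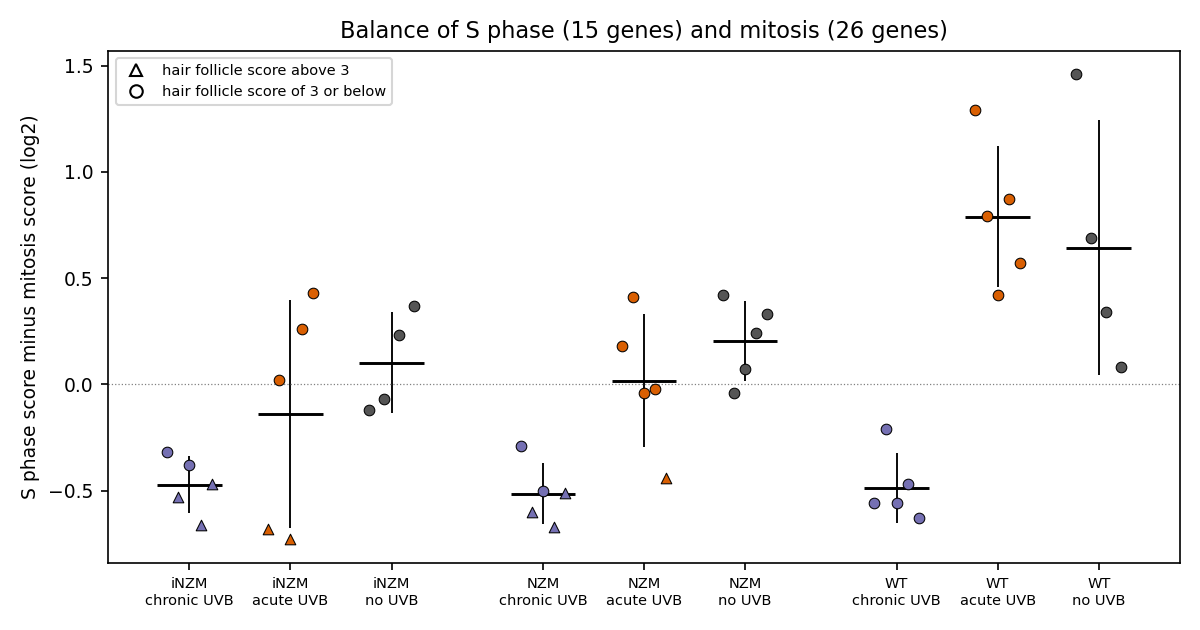
S phase score (15 genes) minus mitosis score (26 genes), in log2 units, in each library by strain and regimen. Points are libraries, triangles those with a hair follicle score above 3, horizontal bars means and vertical bars 1 SD. All 15 chronic UVB libraries lie between −0.67 and −0.21.

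Strains were also set side by side under the same regimen. With no UVB, 8 of 50 members were higher in NZM than in WT skin and none lower, where 7.47% of all genes tested were higher. They were Ttk, Mcm6, Cdc20, Mybl2, Cdca3, Kif23, Ndc80 and Birc5. Over the whole list the median log2 difference was 0.88, and all 50 differences were above 0. Mcm6 differed by 1.29 ± 0.30 (SE, adjusted p by limma 0.0022). Ttk had 389.8, 460.1, 518, 530.4 and 646 normalised reads in NZM skin with no UVB, against 168, 206, 214 and 243 in WT skin with no UVB, fully apart, with a log2 difference of 1.28 ± 0.23 (SE, adjusted p by limma 0.00011). WT library 44 had the highest member score of its group, −0.23, and a hair follicle score of 2.72. Without it 17 members were called, and without the 9 libraries, none of which is in these 2 groups, 20 were, where 11.3% of all genes were higher. Without WT library 41, 43 or 45 the count was 2, 4 or 3, and without NZM library 32, 33, 34 or 35 it was 3, 5, 3 or 3. For fits without a single library the share of all genes is not given. edgeR on whole reads called 3, where it called 7.07% of all genes higher.

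After acute UVB, 41 members were higher in NZM than in WT skin and none lower, where 7.96% of all genes tested were higher. The median over the members was 1.48, against 0.02 over all genes tested. Kif23, a motor of cytokinesis, had the smallest p, at 2.24 ± 0.40 (SE, adjusted p by limma 9.28e-05), and Mcm6 followed at 1.56 ± 0.28 (SE, adjusted p by limma 0.000108). Birc5 had 499, 708, 737, 739 and 1498 normalised reads in NZM acute UVB skin, against 76.0, 138, 224, 359 and 424 in WT acute UVB skin. The groups did not overlap, and the log2 difference was 1.93 ± 0.38 (SE, adjusted p by limma 0.000392). Leaving out NZM library 5 gave 19 calls and leaving out WT library 50 gave 17, where the share of all genes is not given here. Among libraries numbered below 46 there was 1 call (3 NZM and 2 WT libraries), where 2.21% of all genes were higher, and among the others 6 (2 NZM and 3 WT libraries), where 1.70% were. The member medians were 1.01 below 46 and 1.55 among the others.

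After chronic UVB no member was called between NZM and WT skin, where 7.88% of all genes tested were called in either direction. No member had an unadjusted p below 0.05 by limma, edgeR called none, and the median log2 difference was −0.03. With a hair follicle term in the model, 13 members were lower in NZM than in WT skin, where 5.94% of all genes were lower.

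Between iNZM and NZM skin no member was called under any regimen, by limma or by edgeR, and no member had an unadjusted p below 0.05. Of all genes tested 0.428% were called after chronic UVB, 0.224% after acute UVB and 0.0313% with no UVB. The median log2 difference of the members was −0.07 after chronic UVB, 0.29 after acute UVB and −0.16 with no UVB.

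The responses themselves were tested against each other. The acute UVB response of NZM minus that of WT skin gave no call, where 0.115% of all genes tested were called, and 1 member had an unadjusted p below 0.05, with no call by edgeR. The acute UVB response of iNZM minus that of NZM skin gave no call, where 0.00522% of all genes were called, and the chronic one gave none, where 0% were. No member had an unadjusted p below 0.05 in those last 2, and edgeR called none. So the higher count in iNZM than in NZM skin after acute UVB is not shown to be a difference between the strains.

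The chronic UVB response of NZM minus that of WT skin was below 0 for all 50 members, with a median of −0.86 against −0.01 over all genes tested, but 1 member was called, where 7.58% of all genes were. This was Ttk, named here because of that call. Ttk lies at chr9:83834689-83872389 on the plus strand. It had 341, 429, 442, 504 and 518 normalised reads in NZM chronic UVB skin, against 389.8, 460.1, 518, 530.4 and 646 in NZM skin with no UVB, 2 groups that overlapped. In WT skin it had 432, 491, 609.7, 633 and 829 after chronic UVB, against 168, 206, 214 and 243 with no UVB, with no overlap. The difference of responses was -1.68 ± 0.32 (SE, adjusted p by limma 0.00145). edgeR also called 1 member. Without WT library 44 a 2nd member was called. Fitting the 4 groups alone called 5, where 5.60% of all genes were lower in NZM. Leaving out the 9 libraries called 10, where 4.75% were, and a hair follicle term in the model called 48, where 10.1% were, with all these members lower in NZM. Among the 10 were Cdc20 at -1.92, Birc5 at -1.96, Rrm2 at -1.26 and Mcm7 at -1.05. With sample numbers below 46 alone, no member was called, where 0.412% of all genes were in either direction, and the Ttk difference was −1.38 ± 0.34 (SE, adjusted p by limma 0.0678).

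Other genes of the pathway were counted in the same way. Of 36 further mitosis genes, 34 rose in WT skin after chronic UVB, where 18.4% of all genes did, with a median log2 difference of 1.83, led in p by Pttg1 (securin), Ckap2 and Cks2 at 2.18 ± 0.30, 2.64 ± 0.38 and 2.25 ± 0.33. After acute UVB 2 rose and 2 fell in WT skin, where 10.4% of all genes rose and 11.3% fell. Of 28 further replication genes 17 rose in WT skin after chronic UVB, with a median of 0.80, and none rose after acute UVB, when Pola1, a subunit of DNA polymerase alpha, fell, with a log2 difference of -1.12. In iNZM skin 19 of 36 and 10 of 28 rose after chronic UVB, where 13.1% of all genes did, and 16 of 36 and 16 of 28 after acute UVB, where 12.8% did. In NZM skin 11 of 36 and 0 of 28 rose after chronic UVB, where 9.20% of all genes did, and 3 of 36 and 1 of 28 after acute UVB, where 10.6% did. The acute UVB counts in WT and NZM skin and the replication count in NZM skin after chronic UVB thus lie below the share of all genes. Gtse1, a G2 and S phase protein that binds p53, was the mitosis gene with the smallest p after acute UVB in each strain. Its log2 difference was 1.94 ± 0.31 (SE, adjusted p by limma 1.73e-05) in iNZM, 1.83 ± 0.29 (SE, adjusted p by limma 1.76e-05) in NZM and 2.54 ± 0.31 (SE, adjusted p by limma 1.23e-07) in WT skin.

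Genes that hold back or drive G1 were read beside the members. Cdkn1a, which encodes p21, had 3509, 5993, 6148, 6521 and 8294 normalised reads in WT chronic UVB skin and 10897, 11830.2, 12143, 15195 and 15375 in WT acute UVB skin, against 3216, 3273, 4569 and 4898 in WT skin with no UVB. The acute UVB libraries stood above all others of the strain. The log2 differences from no UVB were 0.58 ± 0.23 (SE, adjusted p by limma 0.0435) after chronic and 1.73 ± 0.23 (SE, adjusted p by limma 5.3e-07) after acute UVB, and chronic against acute UVB differed by -1.14 ± 0.22 (SE, adjusted p by limma 7.66e-05). In NZM skin Cdkn1a had 5522, 5779, 6417, 6657 and 6866 after chronic and 6853, 7192, 7468, 9439 and 10886 after acute UVB, against 2998, 3347, 4038, 4811 and 5185 with no UVB. Exposed libraries were all above the unexposed ones, and the log2 differences were 0.64 ± 0.22 (SE, adjusted p by limma 0.0337) for chronic and 1.05 ± 0.22 (SE, adjusted p by limma 0.000482) for acute UVB. In iNZM skin they were 0.33 ± 0.23 (SE, adjusted p by limma 0.274) for chronic and 0.54 ± 0.23 (SE, adjusted p by limma 0.0801) for acute UVB, neither called. In iNZM acute UVB skin, libraries 6 and 49, which are among the 9 with high hair follicle scores, had the lowest p21 reads of their group.

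Myc, a driver of G1 entry, rose after acute UVB in every strain, by 0.84 in iNZM, 0.68 in NZM and 1.09 in WT skin. After chronic UVB it had log2 differences of 0.09, -0.27 and 0.34 in the same order and was not called. It was lower after chronic than after acute UVB in iNZM, NZM and WT skin, by limma adjusted p = 0.00123, 8.41e-05 and 0.000157. Ccnd1, cyclin D1, rose in iNZM skin after acute UVB, by 1.28 ± 0.35 (SE, adjusted p by limma 0.00695), and was not called in the other 5 comparisons. The inhibitors Cdkn2c and Cdkn2b fell in WT skin after acute UVB, with log2 differences of -1.06 and -1.20. Of the E2F and DREAM genes, the repressor E2f7 was called after acute UVB in iNZM skin at 1.95 ± 0.50 and in NZM skin at 1.70 ± 0.47. E2f8, its relative, was called in WT skin after chronic UVB at 1.80 ± 0.37, where E2f6 and the pocket protein gene Rbl2 fell, with log2 differences of -1.27 and -0.75.

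Markers of other cells moved beside the members. In WT skin after chronic UVB, 6 of 7 activated keratinocyte markers rose (median log2 difference 5.25), 7 of 8 skeletal muscle markers fell (median −2.20) and 5 of 8 fibroblast markers fell (median −1.71). After acute UVB in WT skin the activated keratinocyte markers rose likewise in 6 of 7, with a median of 4.30, and no muscle or fibroblast marker was called. Mean activated keratinocyte scores were higher under UVB in the other strains too. In NZM skin they were 0.86 (chronic) and 2.2 (acute), against −1.75 with no UVB. In iNZM skin they were −0.47 and 1.72, against −1.03, with overlap of libraries under both regimens. In iNZM skin after chronic UVB, 10 of 11 T cell markers fell (median −2.40), as did 8 of 10 myeloid (median −2.53), 7 of 8 fibroblast (median −2.07) and 7 of 8 muscle markers (median −1.85). Mean T cell marker scores were lower than in unexposed skin in every UVB group. In iNZM skin they were −0.73 (chronic) and −0.53 (acute), against 1.6 with no UVB. In NZM skin they were −0.06 and −0.15, against 1.13, and in WT skin −0.49 and −0.76, against 0.39. In NZM skin after chronic UVB, 7 of 8 muscle markers fell (median −1.68), while 3 of 8 fibroblast markers rose and none fell (median 1.45). Basal keratinocyte markers fell in 5 of 8 after chronic UVB in iNZM skin (median −0.80) and in 4 of 8 after acute UVB (median −0.53). In NZM skin they fell in 7 of 8 after chronic UVB (median −1.14) and in 5 of 8 after acute UVB (median −0.86). In WT skin 2 of 8 rose and 1 fell after chronic UVB (median −0.42), and 1 rose and 2 fell after acute UVB (median −0.63). Of all genes tested, 15.7% (chronic) and 12.4% (acute) fell in iNZM skin. In NZM skin 9.78% and 10.7% fell, and in WT skin 16.8% and 11.3%. The reads of a member are a share of the library, and the part that RNA of these other cells had in its differences was not tested. Exons of Ube2c overlap those of the muscle gene Tnnc2, those of Cdc20 overlap Elovl1 on the other strand, and those of Top2a overlap Gm23451. In all, 15 members have exons that another annotated gene overlaps. For Tyms, Pcna, Ccnb1 and Ccnb2 a pseudogene of the same name is annotated, so their reads may be split.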

How the data were processed

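Back skin RNA of 43 libraries in 9 strain-by-UVB groups was sequenced as paired reads of 151 bases, per the labels' protocols. The authors deposited 1 table of signal values, read counts divided by a size factor per library. STAR, HTSeq, DESeq2 and mm10 are named in the submitters' processing notes; their versions, order and annotation are not given in the sources used here. Values were whole multiples of 1 read for 100.0% of values within 0.01, which gave reads per library. No 2 libraries of the same group were alike, and libraries of different groups were not compared for this.

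Groups were compared with limma 3.58.1 (R 4.3.3) on log2(value + 1), with a mean-variance trend, all 43 libraries in 1 fit, Benjamini-Hochberg adjustment over 19170 genes, 2-sided, at 0.05. Fold changes of low genes are understated on this scale. edgeR 4.0.16 quasi-likelihood on recovered reads was an alternative, as were a pseudocount of 8, no filter, TMM scaling, the compared groups alone, the hair follicle score or the sample number as a covariate, and leaving out libraries. Fits restricted by sample number were added after seeing the data. The fits were also run on simulated counts, with the same dispersion for every gene and changed genes in a single group. No group was split there as by the hair follicle libraries, so the simulation does not check the fits for such groups. The members and lists were chosen with earlier results of these data known. Values in every library are given for 10 members fixed by name and the 3 smallest adjusted p of each UVB comparison, in at least 1 comparison. Positions are from GENCODE vM21 (GRCm38), promoters from RefSeq.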

Additional observations from a re-analysis of the deposited data

Results flagged for a closer look

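Pcna had 1 WT chronic UVB library, number 58, at 3453 normalised reads, against 2353 to 2497 in the other 4. On the log2(reads + 1) scale the gap was 0.845 of the group's range, above Dixon's critical value for 5 libraries. It was the 1 such case among 144 tests over 16 quantities and 9 groups. By chance about 1 test in 20 would be flagged, so 1 flag in 144 is fewer than chance alone gives. Library 58 also had the highest reads of its group for Mki67, Top2a, Birc5, Cdc20 and Cdk1.

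Ttk responded differently to chronic UVB in NZM and WT skin, with a response of NZM minus WT of −1.68 on the log2 scale. With no UVB it was also higher in NZM than in WT skin.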

How the results depend on the processing

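No paired analysis was possible because no sample number is shared between groups. A pseudocount of 8 and TMM scaling left every count of called members within 1.5 times of the one reported, as did no filter and the sample number covariate, and edgeR did so except for NZM against WT with no UVB (3). Fitting only the compared groups moved chronic UVB to 11 in iNZM and 32 in NZM, acute UVB to 14 in iNZM, 10 in NZM and 1 in WT, and the chronic response of NZM minus WT to 5. With a hair follicle term in the model the counts were 2 and 2 for chronic UVB in iNZM and NZM, 7 and 4 for acute UVB in iNZM and WT, 9 and 4 for chronic against acute UVB in iNZM and NZM, 13 and 35 for NZM against WT after chronic UVB and with no UVB, and 48 for the chronic response. Without the 9 hair follicle libraries they were 3 and 0 for chronic UVB in iNZM and NZM, 5, 2 and 4 for acute UVB in iNZM, NZM and WT, 8 for chronic against acute UVB in iNZM, 1 and 20 for NZM against WT after chronic UVB and with no UVB, and 10 for the chronic response. With sample numbers below 46 they were 36 and 1 for chronic UVB in iNZM and NZM, 9 and 8 for acute UVB in iNZM and WT, 2 for chronic against acute UVB in WT, 1 and 13 for NZM against WT after acute UVB and with no UVB, and 0 for the chronic response. With numbers of 46 or above they were 2 for chronic against acute UVB in iNZM, 6 for NZM against WT after acute UVB and 2 for iNZM against NZM after chronic UVB, where both counts of 2 rest on 1 iNZM chronic UVB library, assumed to vary like the other groups. Where no share of all genes is given for a setting, its count is not set against all genes. The causes were not tested.

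Leaving out 1 library gave 6 to 30 (chronic UVB) and 7 to 34 (acute) in iNZM, 3 to 18 and 2 to 8 in NZM, 33 to 45 and 1 to 3 in WT. It gave 0 to 1 for chronic against acute UVB in iNZM and 37 to 45 in WT, 17 to 46 (acute UVB) and 2 to 17 (no UVB) for NZM against WT, and 1 to 2 for the chronic response. These ranges are of the members alone, with no share of all genes beside them. Direction was checked for the members fixed by name or taken for their smallest adjusted p, in comparisons of UVB with no UVB. None of these members reversed its direction while called. Other members, and the strain, regimen and response comparisons, were not checked for this. A lost call with 2 libraries in a group reflects fewer samples as well as other settings.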
